A study of Mus musculus with 90 samples.

Results

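RAW 264.7 is a mouse macrophage-like cell line. This account covers its response to lipopolysaccharide (LPS), the outer-membrane glycolipid of Gram-negative bacteria, given for 2 h. The group was chosen by its label and held 6 of the 90 arrays of the series, which form 3 of its 45 dye-swapped pairs. The treated cells received LPS at 100 ng/ml with lipid binding protein (LBP), a carrier of LPS, at 100 pM, and the comparison cells were kept in medium. Each array was a custom Agilent oligonucleotide chip on which total RNA of treated and of medium-only cells was hybridised together, in opposite dyes on the 2 arrays of a pair. For comparison, the text also uses LPS with LBP at the same doses for 1 h and for 4 h, and interferon-gamma (IFG) at 5 nM for 2 h, with 6 arrays each. A cell line is a single population grown in culture, so these values describe that line only.

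LPS is recognised by CD14 and by the receptor complex of TLR4 and MD-2 (gene Ly96). Signalling then runs through the adaptor MyD88 to NF-kB and the MAP kinases, and through the adaptor TRIF to the factor IRF3, which drives interferon-beta (Ifnb1). Secreted interferon-beta in turn acts on the same cells through its receptor and switches on antiviral genes. Macrophages are known for a rapid first wave of transcription factors and cytokines, followed by the interferon-dependent wave.

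Values below are log2 ratios of LPS-treated over untreated cells, so 1 is a 2-fold higher and -1 a 2-fold lower signal. Neither labels nor files state which dye is the numerator of the deposited ratio. The direction used here, higher with LPS, is therefore the likely one, since Tnf, Il1b and Ifnb1 come out high, and turning it would turn every sign together. The value of a set is the mean of its pair of arrays after the swapped array was turned, and a mean is given with the SD over the 3 sets. Whether the sets came from separate cultures is not in the labels, so the spread between sets may be technical. An adjusted p-value rests on the spread between sets within all 15 conditions of the series, not on the 3 LPS sets alone. A feature, meaning a named gene or an unnamed probe, was called when its limma p adjusted by Benjamini and Hochberg over 11600 features was under 0.05 and its mean was at least 1 or at most -1. "Rose" and "fell" are used only of called features.

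The table holds 16281 probes, and 8.36% to 9.96% of the values on the 6 arrays were exactly 0 and were treated as missing. The paired arrays correlated at 0.57, 0.31 and 0.66 over probes after turning. The number of arrays limits the precision, since ratios carry no read depth. The macrophage label could not be read from levels, because a ratio shows a difference and not an abundance. Of 23 tested Fc receptor and macrophage surface genes none was called at 2 h, including the macrophage marker Adgre1 at 0.28 ± 0.24 and the receptor of macrophage colony-stimulating factor, Csf1r, at -0.21 ± 0.12. Lyz2, the macrophage lysozyme, was among the list members on the chip that had too few values to be tested.

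Set 3 stood apart from the other 2 sets in part of the genes. At 82 features it lay at least 2-fold away from both other sets, 74 times below and 8 times above, against 9 such features for set 1 and 5 for set 2. Over the 42 replicates of the other conditions the same count ran from 0 to 85, with a median of 7. Of the 82, 19 were called at 2 h. The features that rose had a median of 1.83 in set 1, 1.75 in set 2 and 1.53 in set 3, and those that fell had -1.27, -1.31 and -1.19. Results that rest on set 3 are given below with and without it.

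At 2 h, 213 of 11600 features rose (1.84%) and 43 fell (0.371%). The higher ones were 190 genes and 23 unnamed probes, and the lower ones 36 genes and 7 unnamed probes. Of the 213, 211 were above 0 on every one of the 6 arrays, and all 43 lower features were below 0 on every one. The calls were made from these same arrays, so the agreement in sign follows largely from the selection and is no separate evidence. Increases were also larger than decreases: 76 of the higher features reached a mean of 2, 23 reached 3 and 4 reached 4, whereas 1 of the lower features reached -2. The median over all features was -0.010. The excess of increases depends on the fold threshold: by the adjusted p alone, 881 features were higher and 904 lower. Without set 3 the counts were 242 higher (2.09%) and 57 lower (0.491%), of which 204 and 38 were the same features.

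The largest increase was that of Nfkbiz, the nuclear inhibitor-like partner of NF-kB needed for secondary response genes such as Il6. It measured 4.86, 5.12 and 4.88 in sets 1, 2 and 3, a mean of 4.95 ± 0.14 (31.0-fold, adjusted p = 1.24e-17). Il1b, the precursor of interleukin-1 beta, measured 4.81, 4.50 and 4.43 (mean 4.58 ± 0.20, 23.9-fold). In both genes the 3 sets lay close together and far above 0. Lynx1, a small protein of the Ly6 family known as a modulator of nicotinic receptors, came next at 4.29, 4.19 and 4.17 (4.21 ± 0.06). Myc, the growth-promoting transcription factor, followed at 4.70, 3.90 and 3.98 (4.19 ± 0.44, 18.3-fold), with set 1 above the other sets.

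**Figure D1:**
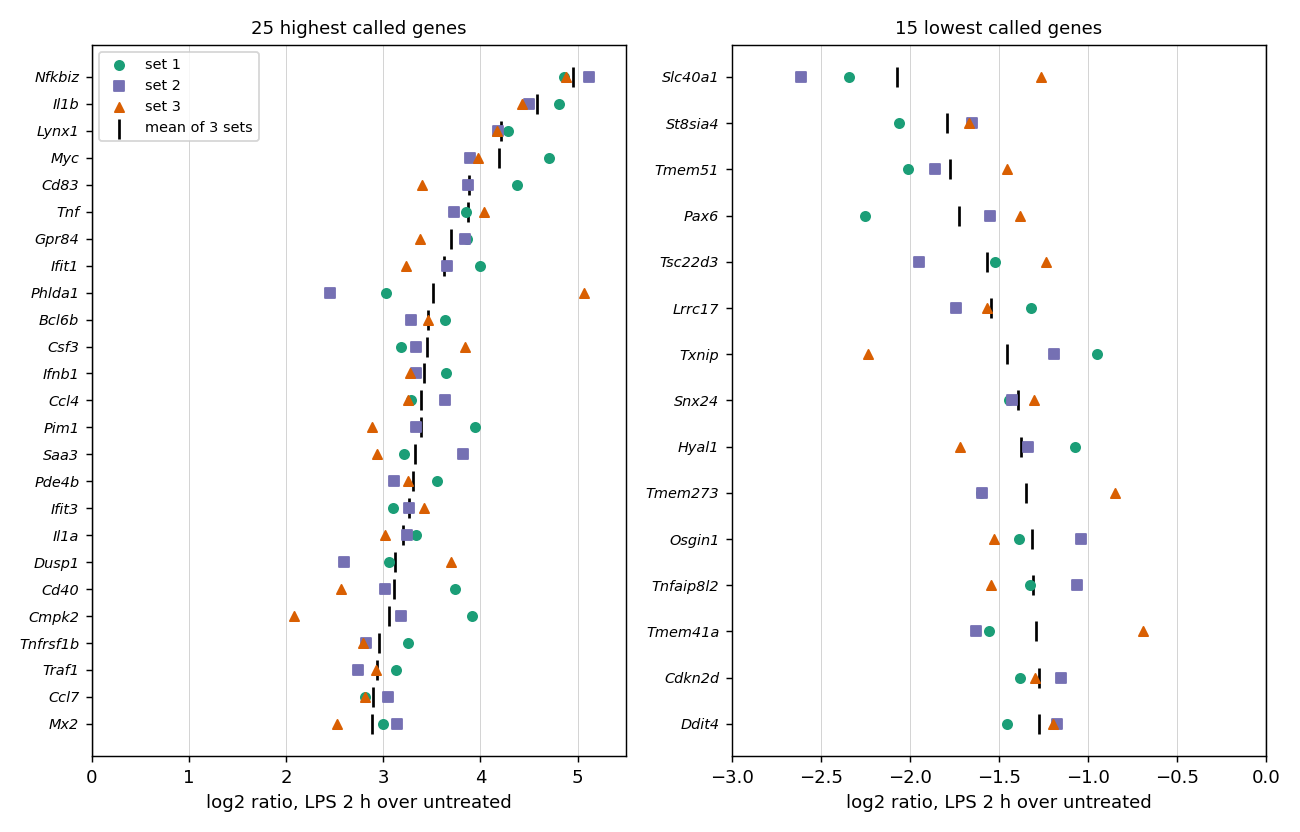
Log2 ratio of LPS at 2 h over untreated RAW 264.7 cells for the 25 highest and 15 lowest called genes; each point is one of the 3 sets and the bar is their mean. Most genes have 3 closely spaced points, while Phlda1 has set 3 at 5.06, above sets 1 and 2, and Slc40a1 has set 3 at -1.27, nearest to 0.

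**Figure D2:**
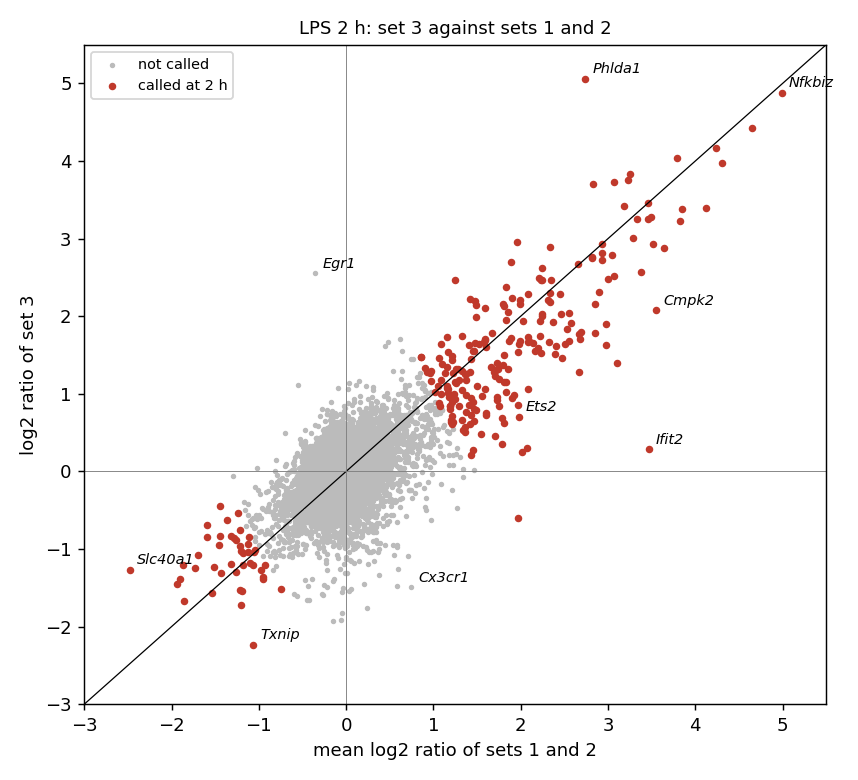
Log2 ratio in set 3 (vertical axis) against the mean of sets 1 and 2 (horizontal axis) at LPS 2 h; each point is a feature, called features are red, and the diagonal is equality. Phlda1 at 5.06 and Egr1 at 2.55 in set 3 lie far above the diagonal, and Ifit2 at 0.29 and Cx3cr1 at -1.49 lie far below it.

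Of 17 tested LPS sensing receptors and co-receptors, 3 rose and none fell (median 0.24). Clec4e, the receptor Mincle, rose to 2.39 ± 0.12, and Tlr2, the lipoprotein receptor, rose to 2.22 ± 0.32 with 2.55, 2.20 and 1.92 in the 3 sets. Tlr1, a partner of Tlr2, was at 1.02 ± 0.31, just past the threshold, and was below it without set 1 (0.93) or without set 2 (0.93). The LPS receptor itself did not pass the fold threshold: Tlr4 measured -0.71, -0.73 and -0.88 (-0.77 ± 0.09, adjusted p = 6.02e-05). All its sets lay below 0, but its 3 probes differed: their means were -1.02, -1.09 and -0.21, so the first 2 lay past the fold threshold and the mean of the gene did not. Cd14 was at 0.28 ± 0.39 and Ly96 at -0.01 ± 0.59, where the sets lay on both sides of 0. Among 21 TLR adaptors and kinases 3 rose and none fell (median 0.20). These were Peli1, a ubiquitin ligase of the pathway (2.52 ± 0.35), Map3k8, the kinase Tpl2 upstream of ERK (2.00 ± 0.46), and Ikbke, the kinase IKK-epsilon (1.16 ± 0.27). The value of Ikbke averages a probe at 2.30 and a probe at 0.02, so it depends on which probe reports the gene.

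The NF-kB subunits and inhibitors formed a small group in which 6 of 8 tested members rose and none fell (median 1.69). Besides Nfkbiz these were the inhibitor Nfkbie (2.53 ± 0.83), the nuclear cofactor Bcl3 (2.00 ± 0.35), and the subunits Relb (1.71 ± 0.27), Nfkb2 (1.67 ± 0.42) and Rel (1.44 ± 0.28). Nfkbie varied among the sets, with 3.27, 2.69 and 1.63. Rel was at 0.72 and was not called with zeros kept as 0, which adds a probe without values to its mean, so the count of 6 rests on that choice. The remaining members lay above 0 without reaching the threshold, Rela at 0.81 ± 0.22 and Nfkbib at 0.69 ± 0.39. At 1 h 6 members rose as well (1.03% of all features rose and 0.0517% fell at that time), with a median of 1.15, and at 4 h again 6 (3.64% rose and 1.17% fell), with a median of 1.44. The inhibitor Nfkbia had too few values to be tested.

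Immediate early transcription factors need no new protein for their induction. Of 32 tested, 10 rose and 1 fell at 2 h (median 0.42), against 16 that rose and none that fell at 1 h (median 1.02). Myc led, followed by Cebpd (2.27 ± 0.06), a C/EBP factor of the acute phase. Cebpd measured 2.32, 2.30 and 2.21, so its sets did not spread. Further members that rose were Ier3 (1.91 ± 0.23), the AP-1 subunit Fosl1 (1.69 ± 0.46), Egr2 (1.65 ± 0.75) and Atf3, a repressor of the ATF family (1.59 ± 0.42). Egr2 rested on set 3: its sets were 1.52, 0.98 and 2.47, and without set 3 it was at 1.25 with an adjusted p of 0.167. Jun, the AP-1 subunit, fell to -1.02 ± 0.21 with -0.80, -1.06 and -1.20, and was at -0.93 without set 3, short of the threshold. On the arrays with LPS-treated RNA in Cy3 alone Jun was at -0.635 and was not called. Fos was at -0.24 ± 0.05 and was not called. Without set 3 the list had 9 members that rose and none that fell. Egr1, also a member of the list, was at 0.61 and was not called. Its sets disagreed: -0.12 and -0.58 against 2.55 in set 3.

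Of 28 tested feedback regulators, which restrain the pathway or its products, 10 rose and none fell (median 0.31). Dusp1, the phosphatase that switches off p38 and JNK, measured 3.06, 2.60 and 3.70 (3.12 ± 0.55). Traf1 was at 2.93 ± 0.19. Rgs16, a regulator of G protein signalling, measured 3.14, 3.07 and 1.39 (2.53 ± 0.99), with set 3 lying well below the others. Tnfaip3, the ubiquitin-editing protein A20 (2.30 ± 0.42), and its binding partner Tnip1 (2.38 ± 0.42) rose to similar means. Il10, the anti-inflammatory cytokine, measured 2.00, 1.92 and 2.95 (2.29 ± 0.58). The mRNA-destabilising proteins Zfp36 (2.16 ± 0.48) and Zfp36l1 (2.06 ± 0.28) also rose, as did the phosphatase Dusp2 (1.91 ± 0.21), whose probes ranged from 0.56 to 3.27.

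Inflammatory cytokines rose in 10 of 22 tested members and fell in none (median 0.95), and all 22 had means above 0. Tnf measured 3.86, 3.72 and 4.04 (3.87 ± 0.16, 14.7-fold). Csf3, the granulocyte colony-stimulating factor, measured 3.18, 3.33 and 3.84 (3.45 ± 0.35). Il1a, the other interleukin-1 gene, measured 3.34, 3.24 and 3.01 (3.20 ± 0.17). In each of these the sets were separated from 0 by several times their spread. Lower but still called were Tnfsf9, the 4-1BB ligand (2.10 ± 0.38), and Il6 (2.01 ± 0.43, with 1.52, 2.27 and 2.23). Lif was at 1.63 ± 0.07 as the mean of a probe at 3.23 and a probe at 0.03. Csf2 was at 1.04 ± 0.12 with an adjusted p of 0.00235 and fell short of the threshold without set 3 (0.97). The interleukin-12 subunit gene Il12b was at 0.04 ± 0.19 and was not called.

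Chemokines rose in 4 of 19 tested members and fell in none (median 0.14). Ccl4, the chemokine MIP-1 beta, measured 3.28, 3.63 and 3.26 (3.39 ± 0.21). Ccl7 was at 2.89 ± 0.14 over 3 probes that gave 0.15, 4.10 and 4.42, and Ccl22 was at 1.49 ± 0.10 over probes from -0.11 to 2.24. For both genes the size of the change depends on the probe. Cxcl16, a membrane-anchored chemokine, was at 1.32 ± 0.50. Ccl2, Ccl3 and Cxcl2, all well-known LPS targets, had too few values to be tested.

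Ifnb1, the interferon-beta gene, measured 3.64, 3.33 and 3.28 (3.42 ± 0.20, 10.7-fold, adjusted p = 1.85e-11). Of 22 tested members of the type I interferon pathway and the interferon regulatory factors, 5 rose and none fell (median 0.30). Besides Ifnb1 these were Irf1 (2.29 ± 0.38), the receptor-associated kinase Jak2 (2.10 ± 0.51), Irf4 (1.48 ± 0.20) and Stat5a (1.14 ± 0.26). Irf7, the factor that amplifies interferon production, was at 0.61 ± 0.29 and was not called.

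Interferon-stimulated antiviral genes were the list with the most called members, 15 of 29 rising and none falling (median 1.02), and all 29 means lay above 0. Ifit1, which binds foreign RNA ends, measured 3.99, 3.65 and 3.23 (3.63 ± 0.38, 12.3-fold), and its relative Ifit3 measured 3.10, 3.27 and 3.42 (3.26 ± 0.16). Cmpk2, a mitochondrial nucleotide kinase, measured 3.92, 3.18 and 2.08 (3.06 ± 0.93). Cmpk2 thus fell off toward set 3, whereas Ifit3 did not. The dynamin-like GTPase Mx2 was at 2.89 ± 0.32, and the ubiquitin-like modifier Isg15 at 2.81, 2.82 and 2.76 (2.80 ± 0.03, 6.95-fold) had sets that almost coincided. Ifit2 measured 3.54 and 3.39 in sets 1 and 2 but 0.29 in set 3, for a mean of 2.41 ± 1.84 with set 3 and 3.47 without it. A second Ifit2 probe, which had too few values in other conditions to be tested, gave 3.57, 3.58 and 1.59. The 15 members that rose had a median of 2.19 in set 1, 2.18 in set 2 and 1.06 in set 3. Without set 3, 18 of the 29 rose and the list's median was 1.22.

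To show the control regions of some genes above, 4 promoters are printed for the 250 bases before the transcription start. They come from RefSeq on GRCm38.p6 and read 5′ to 3′ on the gene's strand. They were chosen because each belongs to a gene above and holds a match to a site known for LPS or cAMP signalling, set in capitals. In Ifnb1 (chr4:88522795-88523044, minus strand) the capitals mark an NF-kB site, in Ifit1 (chr19:34640639-34640888, plus strand) and Ifit3 (chr19:34583279-34583528, plus strand) a pair of interferon-stimulated response elements (ISRE) each, and in Dusp1 (chr17:26508473-26508722, minus strand) a cAMP response element (CRE).
Ifnb1: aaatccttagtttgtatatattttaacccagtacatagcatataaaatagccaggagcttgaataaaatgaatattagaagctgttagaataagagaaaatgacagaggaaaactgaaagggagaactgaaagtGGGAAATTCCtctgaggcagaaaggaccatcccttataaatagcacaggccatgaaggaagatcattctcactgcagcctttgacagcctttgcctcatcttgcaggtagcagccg
Ifit1: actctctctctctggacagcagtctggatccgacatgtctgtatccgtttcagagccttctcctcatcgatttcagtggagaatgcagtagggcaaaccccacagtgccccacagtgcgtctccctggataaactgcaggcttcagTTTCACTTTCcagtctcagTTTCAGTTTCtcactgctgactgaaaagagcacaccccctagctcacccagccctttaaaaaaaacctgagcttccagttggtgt
Ifit3: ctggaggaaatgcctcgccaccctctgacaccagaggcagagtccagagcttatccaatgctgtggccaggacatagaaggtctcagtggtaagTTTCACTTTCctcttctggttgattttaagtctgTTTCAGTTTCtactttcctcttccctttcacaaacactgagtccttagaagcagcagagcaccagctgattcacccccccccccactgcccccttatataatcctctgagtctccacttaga
Dusp1: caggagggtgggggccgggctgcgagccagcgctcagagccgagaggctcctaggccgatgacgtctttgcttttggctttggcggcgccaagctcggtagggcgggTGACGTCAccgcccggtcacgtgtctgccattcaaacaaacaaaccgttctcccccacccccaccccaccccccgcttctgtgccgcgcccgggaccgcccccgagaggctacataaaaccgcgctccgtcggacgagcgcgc
The ISRE was searched as GAAA, any 2 bases and GAAA again, the CRE as TGACGTCA and the AP-1 site as TGANTCA, all on both strands, and the NF-kB site by its consensus. Both capital runs of Ifit1 and of Ifit3 match the ISRE on the opposite strand. The window of Ifit3 also holds 1 match to the AP-1 site, left in lower case.

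Promoter sequence was at hand for 142 of the 190 genes that rose and for 32 of the 36 that fell. An NF-kB site was held by 28 of the 142 (19.7%), against 8.23% of 27025 genes with a promoter entry and 10.2% of the 7761 tested genes with one. An ISRE was held by 12 (8.45%), against 3.46% of all and 3.41% of tested genes. An AP-1 site was held by 22 (15.5%), against 7.82% of all and 7.27% of tested genes, and a CRE by 6 (4.23%), against 1.77% and 2.33%. Among the 32 genes that fell, 1 held an NF-kB site, none an ISRE, 2 a CRE and 3 an AP-1 site. Of the 25 highest genes 14 had a sequence. Of these 14, 2 held an NF-kB site (14.3%), 4 an ISRE (28.6%), 1 a CRE and 2 an AP-1 site. These are counts of letters in a window, with overlaps between sites not removed.

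Genes of the interferon-gamma response rose in 6 of 22 tested members and fell in none (median 0.36). Cd40, the co-stimulatory receptor, measured 3.73, 3.02 and 2.56 (3.11 ± 0.59). The immunity-related GTPases Irgm2 (2.14 ± 0.58) and Igtp (1.58 ± 0.58), the guanylate-binding protein Gbp3 (2.14 ± 0.45) and the checkpoint ligand Cd274 (1.58 ± 0.34) rose as well, and each was lowest in set 3. Without set 3, 9 of the 22 rose, with a median of 0.55; Tgtp1, at 1.28, 1.66 and 0.02, was among those gained.

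On the cell surface, 6 of 22 tested co-stimulation, adhesion and TNF family receptor genes rose and none fell (median 0.19). Cd83, a marker of activated antigen-presenting cells, measured 4.37, 3.87 and 3.40 (3.88 ± 0.49). Tnfrsf1b, the second TNF receptor, measured 3.26, 2.82 and 2.79 (2.96 ± 0.26) with a standard error of 0.13. Fas, the death receptor, was at 2.39 ± 0.54, and Plaur, the urokinase receptor, at 2.36 ± 0.39. Of 30 tested cytokine, chemokine and growth factor receptors none rose and 1 fell, Tgfbr2, a receptor of TGF-beta (-1.16 ± 0.29). With exact zeros kept as 0, which brings a second probe into the mean, Tgfbr2 was at -0.66 and was not called.

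Among 29 tested secreted proteases, coagulation and acute-phase genes 4 rose and none fell (median 0.22). Saa3, an acute-phase apolipoprotein, measured 3.21, 3.83 and 2.94 (3.32 ± 0.46), Hdc, the enzyme that makes histamine, was at 2.32 ± 0.27, and F3, the coagulation initiator tissue factor, at 1.97 ± 0.20. Of 22 tested eicosanoid, nitric oxide and tryptophan enzymes 3 rose and none fell (median 0.21). Ptgs2, the cyclooxygenase of prostaglandin synthesis, measured 3.47, 2.40 and 2.72 (2.86 ± 0.55), and Odc1, the first enzyme of polyamine synthesis, measured 2.44, 2.26 and 2.46 (2.39 ± 0.11). Nos2, the inducible nitric oxide synthase, was at 0.67 ± 0.44 and was not called at 2 h. Among G protein-coupled receptors and their regulators 3 of 33 rose and 1 fell (median 0.08). Gpr84, a fatty acid receptor of myeloid cells, measured 3.86, 3.84 and 3.38 (3.69 ± 0.27), and the nicotinic acid receptor Hcar2 was at 2.37 ± 0.70, whereas Rgs14 fell to -1.13 ± 0.15.

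Regulators of cell death rose in 9 of 27 tested members and fell in none (median 0.45), on both sides of the pathway. On the side that protects cells, Cflar, an inhibitor of caspase-8, was at 2.06 ± 0.20, Birc3 at 1.55 ± 0.42, and Bcl2a1d and Bcl2a1a at 1.98 ± 0.34 and 1.95 ± 0.26. The last pair are near-identical gene copies whose probes may not tell them apart. Bcl2a1b of the same list was at 0.80 and was not called. On the side that promotes death, Fas and Bcl2l11, the BH3-only protein Bim (2.36 ± 0.57), rose. The stress sensors Gadd45b (2.70 ± 0.38) and Gadd45a (2.66 ± 0.03) rose to like means. Phlda1 measured 3.03, 2.45 and 5.06 (3.51 ± 1.37), and 2.74 without set 3, so its size rested on set 3.

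**Figure D3:**
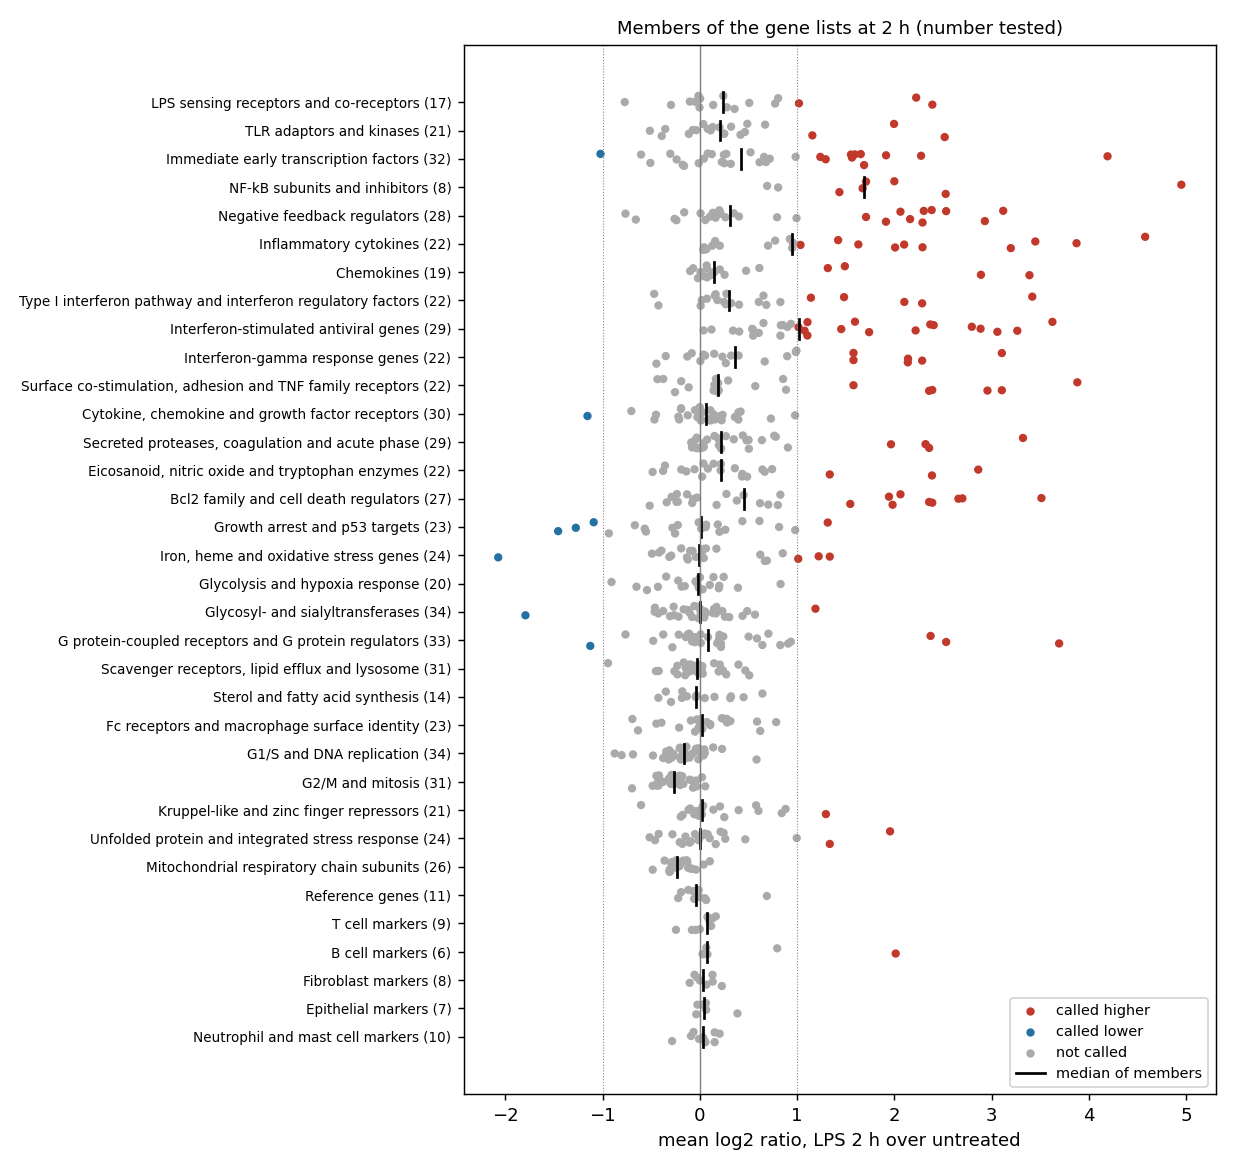
Log2 ratio at LPS 2 h of the tested members of the gene lists, one point per gene, with called members marked and the list median as a bar. The NF-kB list has a median of 1.69 and the antiviral list of 1.02, while the mitotic list lies below 0 with a median of -0.27.

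Decreases at 2 h were smaller. Slc40a1, the iron exporter ferroportin, fell the most, with -2.34, -2.61 and -1.27 (-2.07 ± 0.71, 4.21-fold lower). St8sia4, a polysialyltransferase, measured -2.06, -1.65 and -1.67 (-1.79 ± 0.23, 3.47-fold lower). Set 3 of Slc40a1 lay nearest to 0, and without it the mean was -2.48. Tmem51 (-1.77 ± 0.29), the transcription factor Pax6 (-1.73 ± 0.46), Tsc22d3, the glucocorticoid-induced leucine zipper protein (-1.57 ± 0.36), and Lrrc17 (-1.54 ± 0.21) followed. Txnip, which binds and inhibits thioredoxin, measured -0.95, -1.19 and -2.23 (-1.46 ± 0.68), the farthest from 0 in set 3, and was at -1.07 without it. Snx24, a sorting nexin, measured -1.44, -1.43 and -1.30 (-1.39 ± 0.08) and had the smallest spread of the 15 lowest genes. The others of the 15 lowest lay between -1.28 and -1.38: Hyal1, a hyaluronidase, Tmem273, Osgin1, Tnfaip8l2, a restraint on immune signalling also called TIPE2, Tmem41a, the cyclin-dependent kinase inhibitor Cdkn2d, and Ddit4, an inhibitor of mTORC1.

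By list, 3 of 23 tested growth arrest and p53 target genes fell and 1 rose (median 0.01). Txnip, Ddit4 and the cyclin G2 gene Ccng2 (-1.09 ± 0.24, and -0.95 without set 3, short of the threshold) fell, and the polo-like kinase Plk2 (1.31 ± 0.53) rose. In the list of iron, heme and oxidative stress genes 3 of 24 rose and 1 fell (median -0.01). The cystine carrier Slc7a11 (1.34 ± 0.07), the iron importer Slc11a2 (1.22 ± 0.33) and the sulfiredoxin Srxn1 (1.01 ± 0.51) rose, opposite to Slc40a1. With zeros kept as 0, which adds a second probe to each, Slc7a11 was at 0.65 and Slc11a2 at 0.79, and neither was called. Slc11a2 was also not called with the filter set on LPS 2 h alone (0.79) or on the arrays with LPS-treated RNA in Cy3 (0.93). Srxn1 rested on set 1: it measured 1.60, 0.80 and 0.64 and was at 0.72 with an adjusted p of 0.0813 without set 1. Among 34 glycosyl- and sialyltransferases St3gal1 rose (1.19 ± 0.64, and 0.92 without set 1, short of the threshold) and St8sia4 fell.

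No cell cycle gene of the lists was called at 2 h. None of 34 tested G1/S and DNA replication genes passed in either direction (median -0.16, with 27 below 0), and none of 31 G2/M and mitosis genes (median -0.27, with 29 below 0), beside 6074 of all 11600 features below 0. The set medians were -0.28, -0.34 and -0.16 for the G2/M list. Without set 3, 1 G1/S gene was called lower, Gmnn (-1.03), and no G2/M gene was called. At 4 h, 5 of the 34 and 4 of the 31 fell, with medians of -0.44 and -0.64. The median of 26 mitochondrial respiratory chain subunits was -0.24 with none called, and its sets differed, with -0.40, 0.07 and -0.21. Of the 20 glycolysis and hypoxia genes, the 31 scavenger receptor and lysosome genes, the 14 sterol and fatty acid synthesis genes and the 11 reference genes none was called. Among 21 Kruppel-like and zinc finger repressors Zbtb7a rose (1.30 ± 0.17), and of 24 genes of the unfolded protein and integrated stress responses Slc7a11 and Ppp1r15a, the phosphatase subunit GADD34 (1.96 ± 0.28), rose.

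Markers of other cell types gave no common movement. None of 9 T cell, 8 fibroblast, 7 epithelial and 10 neutrophil and mast cell markers was called, with medians from 0.03 to 0.08. Of 6 B cell markers Cd22, an inhibitory lectin of B cells, rose, with 1.84, 1.82 and 2.38 (2.01 ± 0.32). A second Cd22 probe, which had too few values in other conditions to be tested, was at -0.19, and with both probes (zeros kept as 0, or the filter set on LPS 2 h alone) Cd22 was at 0.91 and was not called. All 6 had means above 0, with a median of 0.07.

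The hour before was compared by testing the difference between LPS at 2 h and at 1 h, each against its own untreated cells. The ratio was higher at 2 h for 74 features (0.638%) and lower for 26 (0.224%). Among the 4 genes with the largest gains were Cmpk2, Ifit1 and Mx2 of the antiviral list, and the receptor gene Hcar2. Cmpk2 was at -0.12, -0.15 and 0.46 at 1 h and rose by 3.00 (SE 0.33, adjusted p = 1.2e-07) by 2 h. Ifit1 was at 0.59, 1.01 and 0.92 at 1 h and rose by 2.78 (SE 0.25), and Mx2 was at 0.26, 0.15 and 0.42 and rose by 2.61 (SE 0.22). For each of the 3 genes every set at 2 h lay above every set at 1 h. They were picked by this difference, so that separation is no further evidence. Hcar2 (2.61), Irgm2 (2.42), Mx1 (2.32), Trim21 (2.10), Parp14 (2.09) and Hdc (2.02) rose by similar amounts, and Ifit2 by 2.41 with its set 3 still near 0; that gain was 3.47 without set 3 and 1.84 without set 1 (adjusted p = 0.0613). Of the antiviral list, 12 of 29 members had a higher ratio at 2 h than at 1 h and none a lower one. At 1 h 1 of the 29 had risen, with a median of 0.04.

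Among genes with a lower ratio at 2 h than at 1 h, several are known as immediate early genes, and of that list 3 of 32 members were lower and 2 higher. Egr1, a zinc finger transcription factor, was at 4.20, 2.89 and 5.33 at 1 h and fell by 3.53 (SE 0.69, adjusted p = 0.0018). Btg2, an antiproliferative gene, was at 4.27, 3.10 and 4.05 and fell by 2.83 (SE 0.41). In both genes set 3 was the highest set at 2 h, with 2.55 for Egr1 and 1.71 for Btg2. Arc, a neuronal early gene, fell by 2.37 with 2 sets measured at 1 h, Klf10 by 1.95, Sertad1 by 1.79, Ddit4 by 1.72, Jun by 1.62 and Tcim by 1.55. The mean of Jun went from 0.60 to -1.02 and that of Ddit4 from 0.44 to -1.28. Neither gene was called at 1 h, so a level above untreated cells at that time is not established. The difference of Ddit4 was not called when set 1 or 3 at 1 h or any of the 2 h sets was left out (adjusted p from 0.0585 to 0.192), nor that of Tcim without set 3 at 1 h (0.181). With zeros kept as 0 the differences of Klf10 (-0.93), Sertad1 (-0.90) and Arc (-1.70, adjusted p = 0.114) were not called. The difference of Egr1 was -4.50 without set 3 at 2 h and -2.93 without set 3 at 1 h. Without set 3 of the 2 h group the difference between the hours was called for 96 features higher and 31 lower, of which 71 and 21 were the same.

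Between 2 h and 4 h the ratio of 170 features rose (1.47%) and that of 33 fell (0.284%). Of the 170, 34 were among the 213 features that had risen at 2 h. Of the 10 genes that gained most, some had not been called at 2 h and others, such as Ifit2, Gbp3 and Ifi204, had already risen. Cfb, complement factor B, was at 0.35 ± 0.40 at 2 h and at 3.65, 3.81 and 2.78 at 4 h, a gain of 3.06 (SE 0.25, adjusted p = 1.6e-10). Iigp1, an interferon-inducible GTPase, was at 0.32 ± 0.16 and gained 3.03 (SE 0.31). Ms4a4c gained 2.93, Tgtp1 2.89, Gbp3 2.85, Zbp1 2.73, Gbp8 2.68, Ifi204 2.68 and Slfn1 2.67. Of the lists, 18 of the 29 antiviral and 14 of the 22 interferon-gamma response genes gained between the 2 times. Ifit2 gained 2.87 with all sets, and its sets at 4 h, at 5.49, 5.44 and 4.89, lay closer together than at 2 h. Set 3 at 2 h was low for Ifit2 (0.287), Tgtp1 (0.023) and Zbp1 (0.025). Without it their 2 h means were 3.47, 1.47 and 1.34, so the gains of these genes were smaller than those given.

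Genes past their highest point by 4 h were led by Gadd45a, which had measured 2.68, 2.62 and 2.67 at 2 h and was at 0.31, 0.82 and 0.38 at 4 h, a drop of 2.16 that is larger than its spread (SE 0.28, adjusted p = 7.7e-07). Tsc22d1 fell by 2.09, from 1.25 ± 0.11 to below 0 in all 3 sets. Herpud1, a protein of the endoplasmic reticulum stress response, fell by 1.55, Frmd6 by 1.43, Tnfrsf12a by 1.34, Lpin1 by 1.25, Srxn1 by 1.25 and Rrad by 1.24. These last genes, other than Frmd6, were not called when single sets were left out, with adjusted p of 0.0739 for Herpud1 and 0.126 for Lpin1 without set 1 at 4 h, 0.11 for Srxn1 without set 1 at 2 h, 0.122 for Tnfrsf12a without set 3 at 2 h, and a difference of -0.96 for Rrad without set 1 at 2 h. Without set 3 of the 2 h group 143 features gained and 36 lost between 2 h and 4 h, of which 135 and 22 were the same. The count of 33 fell to 15 without set 1 of LPS at 4 h and was 51 without its set 3.

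A peak at 2 h, with the difference called upward from 1 h and downward to 4 h, was found in 2 genes. Phxr4 was at 0.39, 0.58 and 0.04 at 1 h, and at 2.24, 2.17 and 2.50 at 2 h. At 4 h it was at 1.40, 1.32 and 1.15. The gene was picked by these differences, so the lack of overlap between the times is no further evidence. Xirp1, an actin-binding repeat protein of muscle, was at 0.29 at 1 h, at 1.68, 1.31 and 1.10 at 2 h and at 0.27 at 4 h as means of 3 sets at the outer times.

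**Figure D4:**
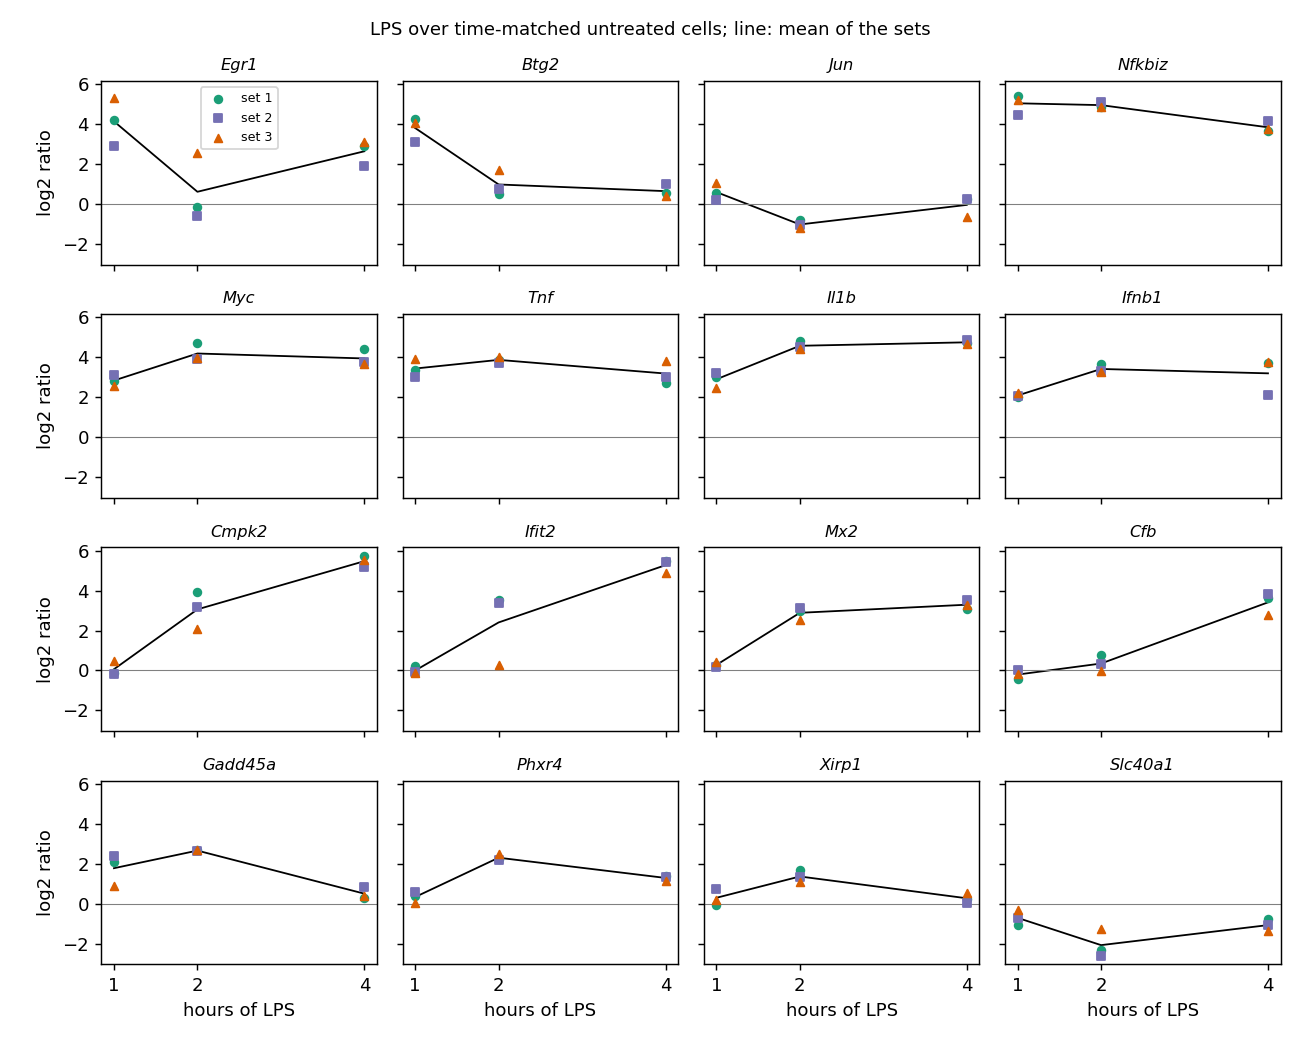
Log2 ratio of LPS over untreated cells at 1 h, 2 h and 4 h for 16 genes; points are the 3 sets and the line joins their means. Egr1 and Btg2 are highest at 1 h, Gadd45a, Phxr4 and Xirp1 at 2 h, and Cmpk2, Ifit2 and Cfb at 4 h.

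Set out by the hours at which they were called, the 213 features that rose at 2 h fell into 72 that had also risen at 1 h and 4 h, 107 at 2 h and 4 h but not at 1 h, 14 at 1 h and 2 h but not at 4 h, and 20 at 2 h alone. Being called at one hour and not at another is not a tested difference, and of the 213, 70 had a tested gain from 1 h to 2 h, 34 a tested gain and 15 a tested loss from 2 h to 4 h. The median of the 72 went from 1.77 at 1 h to 2.36 at 2 h and 2.35 at 4 h. That of the 107 went from 0.42 to 1.45 and 1.95. The 14 early ones, with Gadd45a, Egr2, Jund, Maff and Id3 among them, went from 1.57 to 1.43 and 0.54. The 20 at 2 h alone included Lif, Ets2, Irf4, Zbtb7a and Xirp1. Conversely, of the 119 features that rose at 1 h, 33 were not called at 2 h, and their median went from 1.29 to 0.61 and 0.21. Of the 43 that fell at 2 h, 28 had also fallen at 4 h but not at 1 h, 12 were called at 2 h alone, Txnip at 1 h and 2 h, and 2 at all 3 times.

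Interferon-gamma acts through its own receptor, without TLR4. At 2 h it raised 123 features (1.06%) and lowered 2 (0.0172%). The ratio was higher with LPS than with IFG for 167 features (1.44%) and lower for 99 (0.853%). The labels do not say whether the LPS and IFG arrays of one set number used the same untreated RNA, so their values may share it. Myc and Dusp1 went opposite ways. Myc, at 4.19 ± 0.44 with LPS, was at -0.97, -1.06 and -1.15 with IFG, a difference of 5.25 (SE 0.33, adjusted p = 3.7e-14). Dusp1 was at -1.08, -1.16 and -0.77 with IFG, a difference of 4.12 (SE 0.34). Both are the features that IFG lowered, and no set of one treatment overlapped those of the other. Both genes were picked by the size of this difference, so that separation is no further evidence. Il1b (4.60), Nfkbiz (4.47), Gpr84 (3.77), Saa3 (3.43), Ifnb1 (3.26), Csf3 (3.24), Il1a (3.13) and Bcl6b, a zinc finger repressor (3.12), also had higher ratios with LPS.

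The genes with a lower ratio with LPS than with IFG were led by Iigp1 and Cxcl9. Iigp1 was at 0.49, 0.28 and 0.19 with LPS and at 5.21, 4.99 and 4.56 with IFG (difference -4.60, SE 0.31). Cxcl9, a chemokine, was at 0.15 ± 0.09 with LPS and at 4.11, 4.13 and 3.77 with IFG (difference -3.86, SE 0.19). Irf8, a macrophage transcription factor, was at 0.27 ± 0.10 and at 2.62, 2.77 and 2.68 (difference -2.42, SE 0.22). In these 3 genes, picked by the size of the difference, the treatments did not overlap, which the choice itself makes likely. Tgtp1 (-3.83), Ly6i (-3.15) and Gbp8 (-2.58) followed, and so did Slc40a1 (-2.53) and Tmem51 (-2.48), which fell with LPS. Of the 22 interferon-gamma response genes 14 had a lower ratio with LPS and 1, Cd40, a higher one. For the 29 antiviral genes the split was otherwise: 6 were higher with LPS, among them Ifit3 (2.65) and Ifit1 (1.88), and 2 lower. IFG itself raised 17 of the 29 (median 1.22), beside 15 with LPS (median 1.02). The median difference between the agents over this list was 0.002. Irf1 was called with both agents, at 2.29 with LPS and at 3.67 with IFG. Of the 213 features that rose with LPS, 142 had a higher ratio with LPS than with IFG and 6 a lower one.

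**Figure D5:**
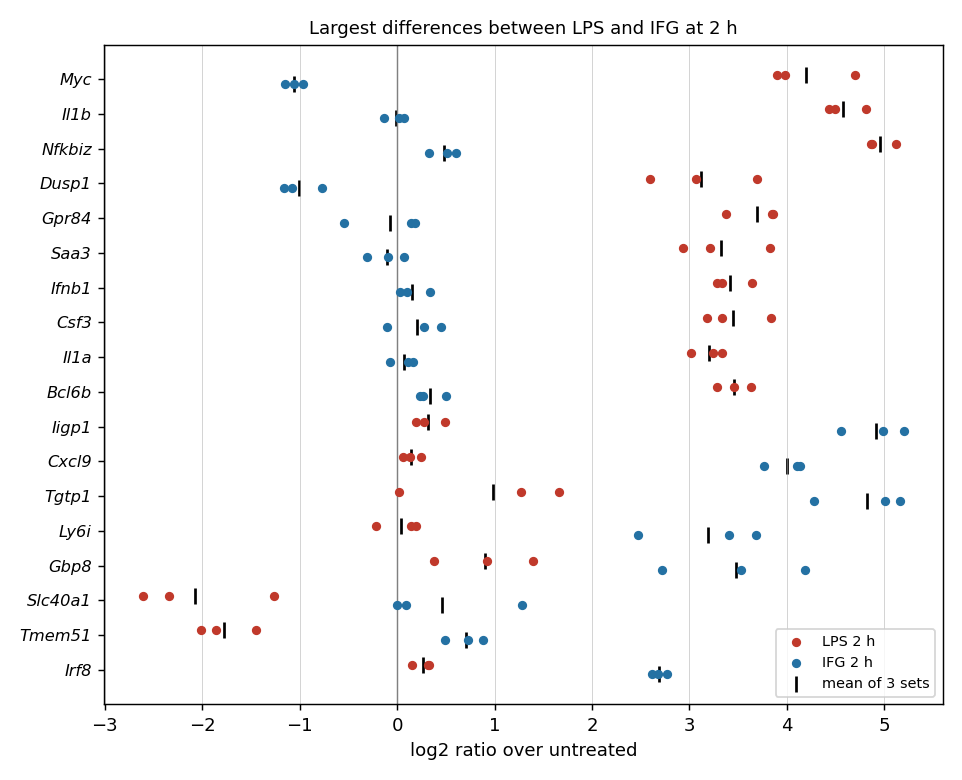
Log2 ratio over untreated cells at 2 h with LPS and with IFG for the 10 genes with the most positive and the 8 with the most negative difference; points are the 3 sets of each treatment. Myc and Dusp1 lie above 0 with LPS and below 0 with IFG, and Iigp1, Cxcl9 and Irf8 lie near 0 with LPS and above 2 with IFG.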

How the data were processed

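Ratios of 45 dye-swapped pairs of custom Agilent 2-colour arrays of RAW 264.7 cells were used, 3 pairs per condition. The authors deposited log2 ratios of the 2 channels, limited at 6.64 in size. The correction and normalisation of scanner signals are not given in the sources used here. The table holds 16281 probes. GEO's platform annotation named 1 gene for 13738 of 13790 listed probes, and the RefSeq gene table held 99.7% of these IDs. Probes naming several genes were treated as unnamed.

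Exact zeros were set as missing. No source used here says what a 0 means, and 753 probes were 0 on every array. The sign of arrays with treated RNA in Cy3 was turned, each pair was averaged when both arrays had a value, and probes with at least 2 of 3 replicates in every condition were kept (13711 probes). Probes of 1 gene were averaged, which left 11600 features, 9760 of them genes and 1840 unnamed probes. One model over 15 conditions and 45 replicates was fitted with limma 3.58.1 in R 4.3.3 (prior SD 0.185, 5.8 prior degrees of freedom), and 1.05% of replicate values were missing. Each mean was tested against 0 and each difference between conditions within the same fit, with Benjamini-Hochberg adjustment over all features. Calls needed an adjusted p under 0.05 and a log2 size of 1. The script recovered most of the known changes in data simulated with independent normal noise of each feature's own spread. The simulation held no set that stood apart and no dye effect, so it does not cover these. Tables and plots were made with Python 3.11.15, pandas 2.3.3, numpy 2.4.6 and matplotlib 3.10.9.

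Named genes were the 25 highest and 15 lowest called at 2 h with the same sign on all 6 arrays, the 10 highest and 8 lowest of each difference, every gene peaking at 2 h, and, for each list, the called members with the largest size (at most 6 a direction) and members that define it. Genes named for set 3 and the genes outside the tested set were chosen after their values were seen, as were the promoters printed. The condition and the gene lists were chosen with earlier results of these data known, so the lists are no independent evidence.

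Deviations from the group means were correlated between sets of the same replicate number. For LPS at 2 h and 4 h they correlated at 0.30, 0.42 and 0.13, positive in every set. For 2 h and 1 h they gave -0.24, 0.096 and 0.30, and for LPS and IFG 0.52, 0.44 and -0.031. So few correlations cannot decide whether the replicate numbers pair the samples in any of these comparisons. The main fit used no pairing. The alternatives were zeros kept as 0, another probe filter, each probe on its own, 1 dye orientation, a dye term with correlated pairs, equal spread of all arrays, only the replicates compared, a replicate block, no fold threshold, and each replicate left out.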

Additional observations from a re-analysis of the deposited data

Results flagged for a closer look

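Effects differed between times and between agents by tests of the difference itself: 100 features between LPS at 2 h and at 1 h, 203 between 4 h and 2 h, and 266 between LPS and IFG at 2 h. Myc (a difference of 5.25) and Dusp1 (4.12) were called in opposite directions with LPS and with IFG. A further 612 features lacked values in other conditions and so were outside the tested set. Of these, 17 were called at LPS 2 h when the filter was applied to that condition alone.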

How the results depend on the processing

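The 256 features called at 2 h (213 higher and 43 lower) became 255 to 331 under the alternatives that kept the fold threshold, and 258 to 299 when 1 set was left out. Without the fold threshold the counts were 1785 for LPS at 2 h (881 higher and 904 lower), 626 at 1 h, 3249 at 4 h, 261 for 2 h less 1 h, 754 for 4 h less 2 h and 775 for LPS less IFG, since that alternative adds features with small changes. With the ratios of every array rescaled to the same spread, the count for 4 h less 2 h was 121 instead of 203. The cause was not tested. When only arrays carrying LPS-treated RNA in Cy5 were used, 89 features instead of 43 were lower at 2 h. With a replicate block the counts were 255 for LPS at 2 h, 107 for 2 h less 1 h, 213 for 4 h less 2 h and 272 for LPS less IFG, and the block changed no call of a gene named at 2 h.

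Of 120 genes named at 2 h, 96 were called under every alternative and 11 were not called when a replicate was left out, among them Maff, Oasl2, Tor3a and Trim30a beside those given above. With zeros kept as 0, Ifit2 at 4 h less 2 h turned to -0.023. Taking the probe nearest to 0, Ccl22 turned to -0.11 and Ccl7 was at 0.15. A ratio near 0 cannot be told from a gene too dim to measure, because no signal level was used here. Exact zeros kept genes known for high expression, such as Eef1a1 and Pkm, out of the tests.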

Other observations

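The wider filter, added after the data were seen, brought in 612 features that had not been tested. At LPS 2 h 17 of the 612 were called, several of them known interferon-inducible genes. Of the 17, 15 were higher and 2 lower, beside 1.84% higher and 0.371% lower over the 11600 features tested. A gene name is carried by 15 of the 17. The 612 features entered through their values at LPS 2 h alone, so the count is not independent evidence. Rsad2, the antiviral enzyme viperin, measured 4.55 and 3.66 in the 2 sets that had a value. Cxcl10, an interferon-inducible chemokine, measured 4.34, 3.55 and 3.79 (3.89 ± 0.41), and the cytosolic RNA sensor Ifih1 measured 3.60, 3.53 and 2.94 (3.36 ± 0.36). Both had all sets well above 0. Gbp2 (2.58 ± 0.83), Cxcl11 (2.51 ± 0.55), Gbp2b (2.04 ± 0.65), Slfn4 (1.82 ± 0.47) and Irgm1 (1.77 ± 0.69) followed, each with its lowest value in set 3. Mt2, a metallothionein, was at 1.39 with 2 sets. The named genes that were lower were Gpr146 (-1.12 ± 0.15) and Dusp6, a phosphatase of ERK, at -1.38 and -1.01 in the 2 sets that had a value.

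Set 3 also set the sign or the size of further genes. Cx3cr1, the fractalkine receptor, measured 0.57, 0.92 and -1.49, and Tfrc, the transferrin receptor, measured 1.57, 0.97 and -0.47. Rcan1, an inhibitor of calcineurin, measured 2.02, 1.93 and -0.60, and Clu, a secreted chaperone, 1.92, 2.22 and 0.31. Rcan1 and Clu were called with all 3 sets, at 1.12 and 1.48, whereas Cx3cr1 and Tfrc were not. Without set 3 Tfrc (1.27), Tgtp1 (1.47), Zbp1 (1.34), Socs1 (1.10) and Stat2 (1.08) passed the threshold as higher, and Gmnn (-1.03), a regulator of DNA replication licensing, and Abcg1 (-1.07), a cholesterol exporter, as lower. What set 3 shares or lacks in its handling was not tested.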
